A study of Mus musculus with 24 samples.

Results

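The 10 genes described here are Fos, Fosb, Jun, Junb, Egr1, Atf3, Ier2, Klf4, Klf6 and Nr4a1, a set of transcription factors and regulators that cells switch on within minutes of a stimulus and that are also known to rise while tissue is dissociated into single cells. They were taken by symbol from the deposited tables, which list 32040 genes. All 10 passed the filter on low counts and were among the 16190 genes tested. The series holds 24 RNA libraries of supporting cells sorted from fetal mouse gonads, with 3 libraries in each of 8 groups. XX libraries were made from pre-granulosa cells of the transgenic line Tg(Enh8-mCherry), and XY libraries from Sertoli cells of the SOX9-IRES-GFP line. Both were collected daily from E11.5 to E13.5 and once more at E15.5, where E counts days of embryonic development. In XY embryos the green reporter reads out Sox9, the gene that sets the Sertoli fate, while the labels do not say which cells the Enh8 transgene marks beyond naming the sorted cells. Sex, mouse line and fluorescent reporter therefore differ together between every XX and XY group and cannot be told apart. The times spent in dissociation and sorting are not given in the sources used here. Whether the libraries of a group came from separate litters is not given either. Each p-value of the main fit thus sets a difference against the spread between libraries within groups, pooled over all 8 groups. That spread may not be one between litters.

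Immediate-early genes are transcribed without new protein synthesis, because the factors that switch them on are already present and need only be phosphorylated. Growth factors, calcium, cAMP and mechanical or heat stress all reach them through kinase cascades that end on serum response factor with its partners, on CREB and on existing AP-1 dimers. FOS, FOSB, JUN, JUNB and ATF3 are basic leucine-zipper proteins that pair with one another as AP-1. EGR1 is a zinc-finger factor, KLF4 and KLF6 are Krüppel-like factors, NR4A1 is an orphan nuclear receptor, and IER2 is a small nuclear protein induced with them. Their messages and proteins are short-lived, so their RNA levels are known to follow recent signals closely.

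RefSeq promoters (build GRCm38.p6) were found for 8 of the 10 genes, all except Egr1 and Ier2. The 5 printed here, each the 250 bases before the RefSeq start site on the coding strand, belong to the 4 genes that rose in XY cells between E13.5 and E15.5 and to Nr4a1, which differed most between the sexes at E12.5. Capitals mark TGACG or its reverse complement CGTCA, the core of the cAMP response element, and in Jun the variant AP-1 site TGACATCA.
Fos, chr12:85473640-85473889, plus strand: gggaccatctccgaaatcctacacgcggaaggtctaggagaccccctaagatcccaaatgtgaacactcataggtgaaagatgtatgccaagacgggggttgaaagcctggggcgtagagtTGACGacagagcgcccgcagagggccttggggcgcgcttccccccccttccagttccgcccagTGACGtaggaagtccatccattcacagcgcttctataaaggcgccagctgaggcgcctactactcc
Fosb, chr7:19310046-19310295, minus strand: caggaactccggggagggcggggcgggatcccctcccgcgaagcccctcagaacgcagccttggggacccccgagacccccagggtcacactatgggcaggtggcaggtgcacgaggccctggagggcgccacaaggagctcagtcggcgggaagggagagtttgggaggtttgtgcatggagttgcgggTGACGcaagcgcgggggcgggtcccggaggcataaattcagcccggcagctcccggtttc
Jun, chr4:95052223-95052472, minus strand: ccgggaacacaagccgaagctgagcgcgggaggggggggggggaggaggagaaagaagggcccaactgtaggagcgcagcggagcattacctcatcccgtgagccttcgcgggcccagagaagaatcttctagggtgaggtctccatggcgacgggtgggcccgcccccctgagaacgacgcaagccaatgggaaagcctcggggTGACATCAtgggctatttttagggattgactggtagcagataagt
Atf3, chr1:191183334-191183583, minus strand: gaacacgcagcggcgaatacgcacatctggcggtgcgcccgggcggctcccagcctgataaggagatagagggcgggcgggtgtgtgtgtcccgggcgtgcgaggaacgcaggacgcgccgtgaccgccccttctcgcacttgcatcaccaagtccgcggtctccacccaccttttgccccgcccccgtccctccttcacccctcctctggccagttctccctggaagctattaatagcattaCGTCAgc
Nr4a1, chr15:101266596-101266845, plus strand: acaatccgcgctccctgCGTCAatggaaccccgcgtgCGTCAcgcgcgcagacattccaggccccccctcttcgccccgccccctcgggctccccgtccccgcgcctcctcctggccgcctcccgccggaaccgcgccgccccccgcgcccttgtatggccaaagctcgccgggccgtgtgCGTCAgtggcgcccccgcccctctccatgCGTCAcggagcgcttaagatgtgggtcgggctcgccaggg
The core stood once or more in 6 of the 8 promoters and in 17.8% of all 32851 promoters of the same length. Nr4a1 held 4 copies, beginning 233, 213, 69 and 40 bases before the start, and Fos held 2, beginning 129 and 66 bases before it. Fosb, Junb, Atf3 and Klf4 held 1 each. The variant TGACATCA was searched for after the sequences had been read, and it stood in Jun and Klf6 and in 2.93% of all promoters. An EGR site, GCGTGGGCG or GCGGGGGCG, stood in Fosb, Klf4 and Nr4a1 and in 3.06% of all promoters. None of the 8 held the full element TGACGTCA (1.55% of all promoters), the AP-1 site TGACTCA (4.46%) or the serum response CArG box (1.47%) in this window. Every motif was searched on both strands, and each copy of the full element TGACGTCA also counts as a core. The windows describe letters only, since no binding was measured.

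Libraries held between 11275251 and 37256881 counts. XX E13.5 replicate 1 carries E13.5 in its title and E12.5 in its stage field; it was used as E13.5, and without it the 10 genes lost only the calls of Jun from E13.5 to E15.5 in XX (adjusted p = 0.0775, edgeR) and of Fos in that step in XY (0.0505) among the stage steps and the XX minus XY differences. Marker genes of the labelled cells stood where the labels put them: summed CPM (counts scaled to a common library size) of 10 Sertoli markers ran from 9254 to 10766 in XY libraries of E12.5 to E15.5 and from 184 to 399 in XX libraries of the same stages. In XX E11.5 the labelled identity was uneven, with Foxl2 at 2.62, 35.2 and 4.73 CPM and Fst, a follistatin gene of the ovarian program, at 135, 479 and 109 CPM in replicates 1 to 3. In XY E11.5 the Sertoli markers came to 1715 to 2945, with Amh at 16.0 to 39.5 CPM. Foxl2, the pre-granulosa regulator, was at 16.8 to 45.8 CPM in XX libraries of E12.5 to E15.5 and at 0.168 CPM or below in XY libraries of E13.5 and E15.5. The 10 pre-granulosa markers summed to 2034 to 2447 CPM in XX and to 280 to 884 CPM in XY libraries of E12.5 to E15.5, a smaller contrast than that of the Sertoli markers. Markers of other cell types were present too. The 8 erythroid markers summed to 11352, 3263 and 28356 CPM in replicates 1 to 3 of XX E11.5 and to at most 113 CPM in any XY library. The 8 interstitial and stromal markers summed to 1030, 1332 and 1752 CPM in XY E11.5, and the 6 steroidogenic markers to 267 to 339 CPM there and 255 to 283 CPM in XX E11.5. In XX cells the germ-cell markers were highest at E15.5. The 10 immune markers summed to 42.5 to 67.7 CPM in XX libraries of E12.5 to E15.5 and to at most 2.43 CPM in any XY library. Exons of Jun overlap those of its antisense gene Junos, and exons of Junb overlap those of Prdx2, both on the opposite strand; as the use of strand is not given, reads of these pairs cannot be told apart.

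On the TPM scale, which corrects for transcript length, Ier2 had the highest mean level over the 24 libraries, at 1383 TPM, followed by Jun at 910 and Fos at 875 TPM. Klf6 (433 TPM), Junb (351 TPM) and Egr1 (312 TPM) were intermediate. Nr4a1 (76.6 TPM), Atf3 (53.7 TPM), Klf4 (45.1 TPM) and Fosb (40.0 TPM) were the lowest. Ier2, Jun and Fos each exceeded more than 99% of the genes tested. Together the 10 genes took between 0.136% and 1.04% of a library's counts.

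**Figure D1:**
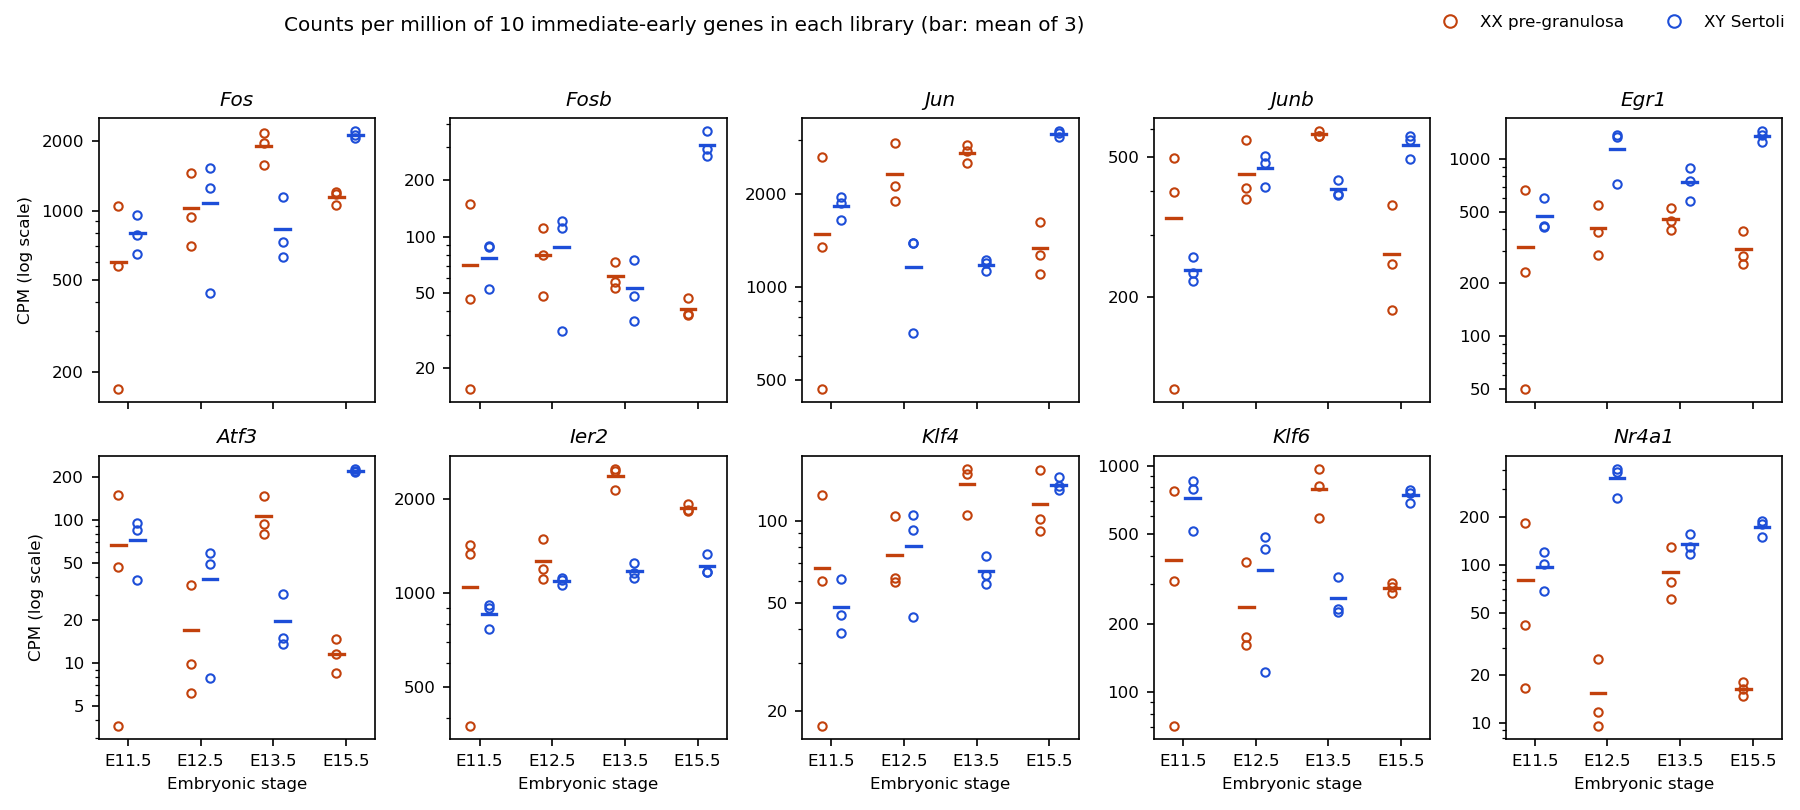
CPM of each gene on a log axis (y, its own range for each gene) by embryonic stage (x); open circles are single libraries, brown for XX and blue for XY, and bars are means of 3. The 3 XX E11.5 libraries are spread widely for every gene, and XY E15.5 stands high for Fos, Fosb, Jun and Atf3.

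The libraries of a group differed from one another more for these genes than for most, and in several groups the order of the libraries was shared across the set. In XX E11.5, replicate 1 had the highest CPM and replicate 3 the lowest for 10 of 10 genes, and the summed levels were 7669, 4385 and 1297 CPM in replicates 1 to 3. In XX E12.5, replicate 3 was highest and replicate 1 lowest for 10 of 10 genes, with sums of 4668, 5390 and 7641 CPM. In XX E13.5, replicate 3 was highest for 10 of 10 genes, and in XY E12.5 replicate 1 was lowest for 10 of 10. Libraries that carry one label thus differed in all or nearly all of the 10 genes at once.

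Within groups, Atf3 varied most and Ier2 least. The pooled SD within groups, on log2(CPM + 1), was 1.20 for Atf3, a stress-induced AP-1 partner, and 0.40 for Ier2. Klf6 (0.79), Fosb (0.76), Egr1 (0.74) and Nr4a1 (0.72) followed Atf3. The median over the 10 genes was 0.68, beside 0.19 over all tested genes and 0.14 over tested genes of 50 CPM or more. Each of the 10 had a larger pooled SD than at least 93.9% of the tested genes. By group, the median SD of the 10 was widest in XX E11.5, at 1.49 beside 0.26 for all tested genes, and narrowest in XY E15.5, at 0.10 beside 0.09.

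**Figure D2:**
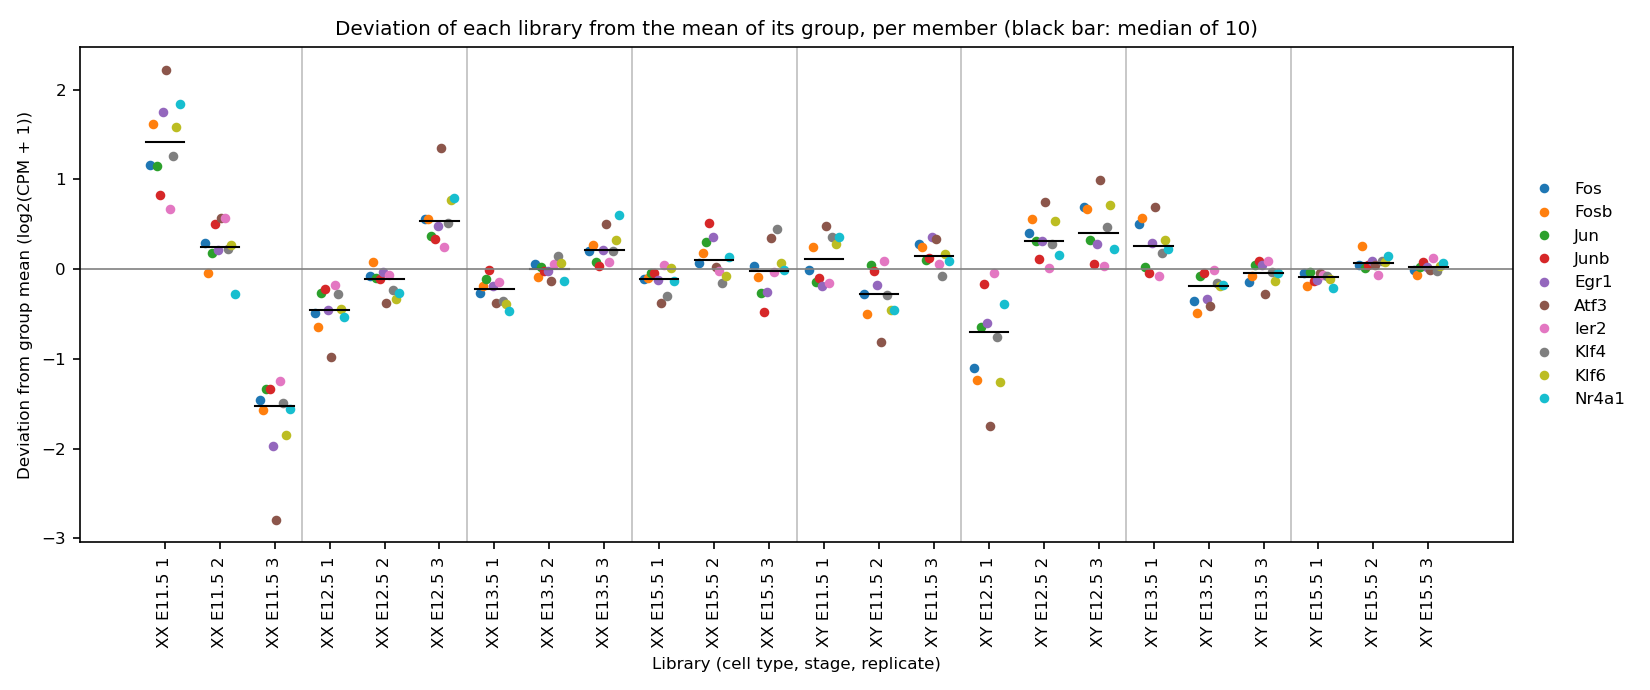
Deviation of each library (x) from the mean of its group on log2(CPM + 1) (y), 1 coloured point per gene, with a black bar at the median of the 10. All points of XX E11.5 replicate 1 lie above 0 and all points of replicate 3 below, with medians of 1.42 and -1.52.

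Other genes of the response followed the same order in part. Among 31 other immediate-early and feedback genes, 26 were highest in XX E11.5 replicate 1, while 17 were lowest in its replicate 3 and 14 in its replicate 2. In XY E12.5 replicate 1, 28 of the 31 were lowest. Of all 16190 tested genes, 4868 were highest in XX E11.5 replicate 1 and 4420 lowest in its replicate 3. Those counts were 4 and 1 of 9 AP-1 relatives, 8 and 6 of 11 other EGR, NR4A and KLF genes, and 9 and 3 of 20 upstream factors and kinases. Among 15 heat-shock and chaperone genes, which encode proteins that hold or refold damaged proteins, 13 were highest in XX E11.5 replicate 1 and 13 lowest in its replicate 3. In XY E12.5 replicate 1, however, 10 of these 15 were lowest and 3 were highest. Hspa1a, an inducible HSP70 gene whose reads may be split with its near-identical copy Hspa1b, was at 2246, 1024 and 297 CPM in XX E11.5 and at 722, 798 and 2573 CPM in XX E12.5. Most of its list differed from the 10 genes in XX E12.5: replicate 3 was highest for 11 of the 15, but replicate 2 was lowest for 9 and replicate 1 for 5. Markers of other cells also differed between the XX E11.5 libraries: the 8 interstitial and stromal markers summed to 936, 495 and 3007 CPM in replicates 1 to 3, and the 10 immune markers to 276, 170 and 444 CPM. Replicate 3, lowest for the 10 genes, was thus highest for erythroid, stromal and immune markers, while replicate 2 was lowest for all 3 marker lists but in the middle for the 10 genes. The Sertoli markers had the order of the 10 genes, with sums of 343, 236 and 159 CPM, Amh at 7.86, 2.48 and 0.324 CPM and Sox9 at 226, 78.6 and 74.5 CPM. In XX E12.5, replicate 3, highest for the 10 genes, was lowest for erythroid markers (977, 1201 and 510 CPM in replicates 1 to 3). The same held for stromal markers (592, 640 and 336 CPM) but not for immune markers (66.4, 61.5 and 66.5 CPM). The part of these cells in the result was not tested.

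Of the AP-1 genes, Fos, Fosb, Jun and Atf3 had their highest group mean in XY E15.5. Fos, the prototype immediate-early gene (chr12:85473890-85477273), measured 784, 651 and 962 CPM in XY E11.5, 440, 1257 and 1535 in XY E12.5, 1144, 630 and 730 in XY E13.5, and 2066, 2209 and 2128 CPM in XY E15.5. The XX E11.5 libraries had 1050, 574 and 169 CPM of Fos and the XX E12.5 libraries 700, 934 and 1454 CPM. The level was 1572, 1967 and 2180 CPM in XX E13.5, then 1061, 1207 and 1181 CPM in XX E15.5. XY E15.5 was thus tight and above all other XY libraries, whereas in XX cells the highest group was E13.5. Fosb, its paralog (chr7:19302696-19310051), was at 268, 365 and 292 CPM in XY E15.5 and at 38.3, 47.0 and 38.9 CPM in XX E15.5. In the other 18 libraries Fosb reached at most 149 CPM, so no library of another group reached the XY E15.5 range.

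Jun, the main dimer partner of the FOS proteins (chr4:95049034-95052222), was at 3058, 3158 and 3197 CPM in XY E15.5, above every other library. It was lowest, among XY groups, at E12.5 (709, 1385 and 1395 CPM), and the XY E13.5 libraries at 1201, 1125 and 1222 CPM lay inside that range. In XX cells Jun was at 2517, 2768 and 2885 CPM at E13.5 and at 1275, 1631 and 1100 CPM at E15.5, without overlap. Junb, a partner that often restrains JUN, was at 575, 574 and 593 CPM in XX E13.5 and 248, 366 and 184 CPM in XX E15.5. In XY cells Junb was at 222, 235 and 260 CPM at E11.5 and at 495, 559 and 575 CPM at E15.5. Atf3 had the second widest range of group means, 19.0-fold, from XX E15.5 (8.51 to 14.7 CPM) to XY E15.5 (214, 227 and 218 CPM). In XX E13.5 Atf3 was at 79.3, 94.0 and 146 CPM, above XX E12.5 (6.18, 9.82 and 35.1 CPM) and XX E15.5 in every library. The XX E11.5 libraries spread across that range, at 149, 46.5 and 3.63 CPM of Atf3.

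Nr4a1, a nuclear receptor that hormones acting through cAMP are known to induce, had the widest range of group means, 22.7-fold. It was at 264, 387 and 405 CPM in XY E12.5 and at 9.56, 11.7 and 25.4 CPM in XX E12.5. In later XY cells it was at 156, 118 and 130 CPM at E13.5 and 149, 190 and 180 CPM at E15.5. In XX cells it was at 61.3, 77.4 and 130 CPM at E13.5 and 14.9, 18.2 and 16.4 CPM at E15.5. At E11.5 it was at 184, 41.6 and 16.6 CPM in XX and 121, 68.8 and 101 CPM in XY. Its top group was XY E12.5, and no library of another group reached the XY E12.5 range. Egr1, a zinc-finger factor downstream of ERK signalling, was at 723, 1369 and 1340 CPM in XY E12.5, 894, 579 and 752 CPM in XY E13.5, and 1245, 1441 and 1381 CPM in XY E15.5. XX libraries of these 3 stages lay between 256 and 553 CPM, below every XY library of the same stage.

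Klf6 was highest at XX E13.5 (589, 813 and 968 CPM), XY E15.5 (682, 777 and 754 CPM) and XY E11.5 (853, 512 and 790 CPM), 3 groups whose ranges overlapped. The XX E11.5 libraries, at 768, 309 and 70.3 CPM, overlapped all 3. Klf6 was at 160, 174 and 375 CPM in XX E12.5 and 290, 272 and 301 CPM in XX E15.5. Klf4 ranged over 2.83-fold in group means, from XY E11.5 (60.9, 38.7 and 44.9 CPM) to XX E13.5 (105, 148 and 155 CPM), and its neighbours in order all overlapped. Ier2 ran a different course: it was at 2142, 2464 and 2499 CPM in XX E13.5 and 1929, 1851 and 1837 CPM in XX E15.5, while all XY libraries lay between 770 and 1334 CPM. Ier2 was the one gene of the 10 whose XX level at E15.5 was above the XY level in every library.

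The XX and XY cells were compared at each stage to see whether the response genes differ between the pre-granulosa and Sertoli lineages. In sorted bulk samples, fewer cells that express a gene and less RNA in each cannot be told apart. At E11.5 none of the 10 genes was called at an adjusted p under 0.05 (edgeR quasi-likelihood test, Benjamini-Hochberg adjustment over all genes), while 42.0% of all genes tested were. The adjusted p-values ran from 0.202 to 0.914, and 0 of the 10 had an unadjusted p under 0.05. DESeq2 called 0 as well. The count rested on the XX E11.5 libraries: without XX E11.5 replicate 1, 5 genes were lower in XX (Nr4a1 -1.74, Egr1 -1.78, Klf6 -1.93, Jun -1.02 and Fosb -1.31, log2, with adjusted p from 0.00210 to 0.0468), and without XX E11.5 replicate 3, 3 were higher (Junb 0.89, Klf4 0.93 and Ier2 0.67, adjusted p from 7.64e-05 to 0.0330). In both of those fits the count over all genes stayed within 1.5 times that of the main fit. Limma on log2 TPM called 1, Klf6 (-1.57, adjusted p = 0.0375 with a pseudocount of 1).

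At E12.5 the difference lay mainly in Nr4a1. XX cells had 22.7-fold less Nr4a1 RNA than XY cells (log2 difference -4.50 ± 0.62, SE, adjusted p = 4.11e-06 by edgeR). Egr1 was also lower in XX (-1.48 ± 0.53, adjusted p = 0.0199) and Jun higher (1.0 ± 0.37, adjusted p = 0.0231). These were 3 of 10 genes, beside 62.1% of all genes tested. At this stage stromal markers summed to 336 to 640 CPM in XX and 50.5 to 55.4 CPM in XY libraries. Erythroid markers summed to 510 to 1201 CPM in XX and 16.4 to 30.4 CPM in XY. The part of such cells was not tested. Jun was not called without XX E12.5 replicate 3 (0.84, adjusted p = 0.0865) or XY E12.5 replicate 1 (0.79, adjusted p = 0.0976), nor without a filter on low counts (adjusted p = 0.0532). Egr1 was not called without XX E12.5 replicate 1 or 2, or XY E12.5 replicate 2 or 3, with log2 differences from -1.38 to -1.22 and adjusted p from 0.0685 to 0.0927, nor by limma on log2(TPM + 1) (adjusted p = 0.0527).

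At E13.5, 6 of the 10 genes were called and all 6 were higher in XX, beside 66.1% of all genes tested, of which 5307 were higher and 5399 lower. Atf3 had the largest difference, 5.45-fold (log2 2.45 ± 0.85, adjusted p = 0.0169 by edgeR). Klf6 was 3.04-fold, Jun 2.30-fold, Fos 2.28-fold, Klf4 2.09-fold and Ier2 2.02-fold higher, with adjusted p from 0.00306 for Ier2 to 0.0380 for Klf4. The share called was near that of all genes, and the median over the 10 was 1.04 on the log2 scale beside 0.01 over all genes. Jun and Ier2 kept their calls under every alternative run. The other 4 calls were lost without XX E13.5 replicate 3, XY E13.5 replicate 2 or XY E13.5 replicate 3, with adjusted p from 0.0508 to 0.0967. Fos and Klf4 were also lost without XX E13.5 replicate 2 (adjusted p = 0.0511 and 0.0738), and Klf4 without XY E13.5 replicate 1 (0.0510) and XX E11.5 replicate 2 (0.0528) and by limma on log2(TPM + 1) (0.0624). Without the 6 E11.5 libraries, an alternative chosen after the data had been seen, 8 genes were called (73.5% of all genes in that fit), with Egr1 added as lower in XX (-0.68, adjusted p = 0.0359) and Junb as higher (0.54, adjusted p = 0.0204). At this stage stromal markers summed to 363 to 461 CPM in XX and 25.7 to 29.2 CPM in XY libraries, and erythroid markers to 481 to 573 and 35.5 to 48.0 CPM; their part was not tested.

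At E15.5 the direction was the opposite, and 7 of the 10 genes were called, all lower in XX, beside 69.4% of all genes tested, of which 5658 were higher and 5572 lower. Atf3 was 18.7-fold lower (log2 -4.23 ± 0.93, adjusted p = 0.000491), Nr4a1 10.5-fold lower (-3.39 ± 0.60, adjusted p = 5.51e-05) and Fosb 7.45-fold lower (-2.90 ± 0.59, adjusted p = 0.000248), all by edgeR. Egr1 was 4.38-fold, Klf6 2.57-fold, Jun 2.35-fold and Junb 2.04-fold lower. The median over the 10 was -1.30 on the log2 scale, beside 0.05 over all genes. The calls of Atf3, Nr4a1, Fosb, Egr1 and Jun held under every alternative run. Junb was not called without XX E15.5 replicate 3 (-0.82, adjusted p = 0.0549). Klf6 was not called in 12 of the fits that left out 1 library, among them each of the 6 E15.5 libraries in turn, XX E11.5 replicate 2, XX E12.5 replicate 2, XX E13.5 replicate 2, XY E11.5 replicate 3, XY E13.5 replicate 1 and XY E13.5 replicate 2, with log2 differences from -1.44 to -1.25 and adjusted p from 0.0517 to 0.115. Ier2, higher in every XX library, lay just outside the threshold (adjusted p = 0.0527). It was called as higher in XX by DESeq2 (0.65, adjusted p = 0.0249), with DESeq2 size factors, with at least 10 counts in every library, with only the libraries compared, in 10 of the fits that left out 1 library and without the 6 E11.5 libraries (0.60, adjusted p = 9.1e-06). That last fit called 9 genes (76.3% of all genes in it), with Fos also added as lower (-0.90, adjusted p = 0.0446). At this stage germ-cell markers summed to 104 to 166 CPM in XX and 47.3 to 74.5 CPM in XY libraries, immune markers to 42.5 to 48.7 and 0.868 to 1.07 CPM, and stromal markers to 429 to 613 and 136 to 181 CPM. The part of those cells was not tested.

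**Figure D3:**
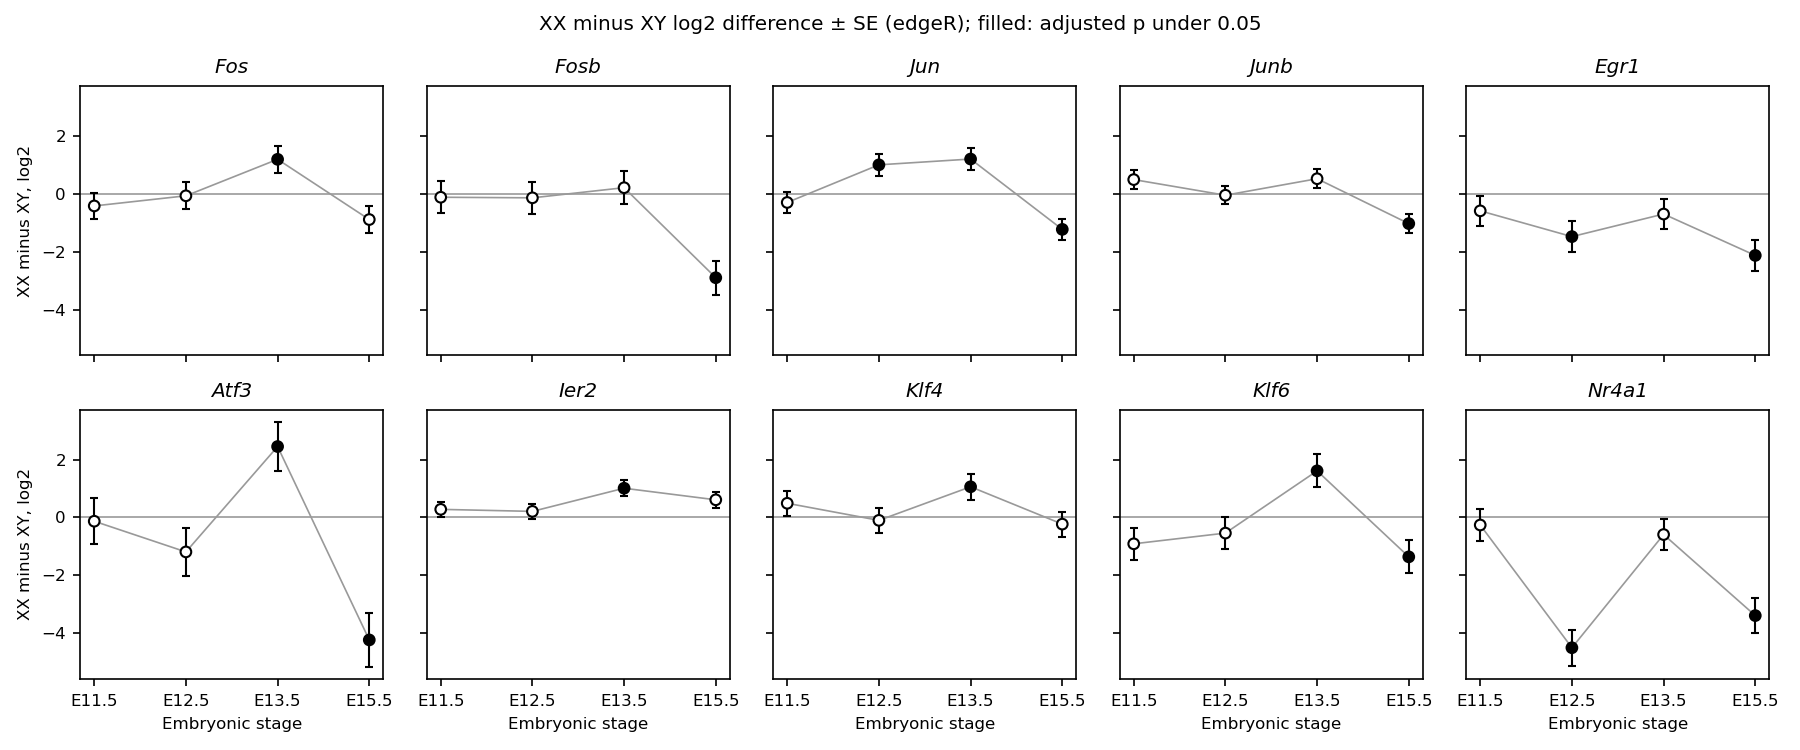
XX minus XY log2 difference ± SE (y) at each embryonic stage (x) for the 10 genes; filled circles passed an adjusted p of 0.05. Fos, Jun, Atf3 and Klf6 are above 0 at E13.5 and below 0 at E15.5, and Nr4a1 is lowest at E12.5.

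In XX cells, the genes called between E12.5 and E13.5 rose and those called between E13.5 and E15.5 fell. From E11.5 to E12.5, 1 of 10 was called (34.0% of all genes tested), Nr4a1, which fell 5.21-fold (log2 -2.38 ± 0.58, adjusted p = 0.00394 by edgeR), and the call was lost without XX E11.5 replicate 1 (-0.91, adjusted p = 0.0938) and in a fit of only the XX E11.5 and E12.5 libraries (adjusted p = 0.115). From E12.5 to E13.5, 4 of 10 rose and none fell (31.7% of all genes tested called). Atf3 rose 6.26-fold, Nr4a1 5.77-fold, Klf6 3.34-fold and Ier2 1.87-fold, with adjusted p from 0.00261 to 0.0253. Atf3, Klf6 and Ier2 lost their calls without XX E12.5 replicate 1 (adjusted p = 0.0978, 0.101 and 0.0720) or replicate 2 (0.101, 0.102 and 0.0564), Atf3 and Klf6 without XX E13.5 replicate 3 (0.0737 and 0.0773), and Klf6 without XX E13.5 replicate 2 (0.0570). From E13.5 to E15.5, 4 of 10 fell and none rose (25.6% of all genes tested called). Atf3 fell 9.06-fold, Nr4a1 5.41-fold, Junb 2.18-fold and Jun 2.04-fold, with adjusted p from 0.00502 to 0.0443. Only Nr4a1 kept this last call under every alternative run; without XX E15.5 replicate 1 the call was lost for Atf3 (-3.01, adjusted p = 0.0541), Junb (-1.08, adjusted p = 0.0560) and Jun (adjusted p = 0.112). Without XX E15.5 replicate 3 it was lost for Junb (-0.92, adjusted p = 0.0967) and Jun (-0.91, adjusted p = 0.162), and Jun lost it in 9 other fits without 1 library (XX E12.5 replicate 2, any XX E13.5 library, XY E11.5 replicate 3, XY E13.5 replicate 1 or 2, and XY E15.5 replicate 2 or 3), with adjusted p from 0.0529 to 0.0986. A fit of only the XX E13.5 and E15.5 libraries called 9 of the 10, all lower at E15.5, beside 40.1% of all genes in that fit.

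XY cells showed another order. From E11.5 to E12.5, 2 of 10 rose (51.9% of all genes tested called): Nr4a1 3.63-fold (log2 1.86 ± 0.55, adjusted p = 0.00804 by edgeR) and Junb 1.95-fold (0.96 ± 0.33, adjusted p = 0.0183). Junb was lost without any 1 of the 3 XY E11.5 libraries or without XY E12.5 replicate 2 or 3, with log2 changes from 0.83 to 0.95 and adjusted p from 0.0573 to 0.0802. From E12.5 to E13.5 none of the 10 was called (16.6% of all genes tested), 1 had an unadjusted p under 0.05, and DESeq2 called 0. The 1 gene was Nr4a1, which was called as lower without the 6 E11.5 libraries (-1.37, adjusted p = 0.00471), in a fit of only the libraries compared (adjusted p = 0.00203), without XX E11.5 replicate 1 (0.00872) and without XX E11.5 replicate 3 (0.0264). From E13.5 to E15.5, 4 of 10 rose and none fell (21.3% of all genes tested called). Atf3 rose 11.3-fold (3.49 ± 0.88, adjusted p = 0.00755), Fosb 5.81-fold (2.54 ± 0.58, adjusted p = 0.00362), Jun 2.65-fold (1.41 ± 0.37, adjusted p = 0.00892) and Fos 2.56-fold (1.35 ± 0.46, adjusted p = 0.0434). The libraries of the 2 groups did not overlap for these 4 nor for Junb, Egr1, Klf4 and Klf6, 8 of 10 genes, beside 49.6% of all genes tested. In the same step the summed stromal markers went from 25.7 to 29.2 CPM to 136 to 181 CPM, germ-cell markers from at most 17.4 CPM to 47.3 to 74.5 CPM and erythroid markers from 35.5 to 48.0 CPM to 88.0 to 113 CPM; their part was not tested. Fos was called with the highest adjusted p of them and was lost in 17 fits that left out 1 library, at adjusted p from 0.0504 to 0.171. These left out XY E13.5 replicate 2 (1.17) or replicate 3 (1.26), any E15.5, XX E13.5 or XY E11.5 library, or replicate 2 of XX E11.5, XX E12.5 or XY E12.5. Without the 6 E11.5 libraries, 7 rose (33.3% of all genes called in that fit), with Klf6, Klf4 and Egr1 added at adjusted p of 0.0173, 0.0151 and 0.0241.

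The opposite courses from E13.5 to E15.5 were tested directly as a difference between the sexes in the change. For this step 7 of 10 genes differed, all with a lower change in XX (25.8% of all genes tested, of which 2005 were higher and 2179 lower). Atf3 had the largest value (-6.67 ± 1.26 on the log2 scale, adjusted p = 0.000757 by edgeR), followed by Fosb (-3.11 ± 0.80), Klf6 (-2.97 ± 0.80), Nr4a1 (-2.80 ± 0.79), Jun (-2.44 ± 0.52), Fos (-2.08 ± 0.65) and Junb (-1.55 ± 0.46), with adjusted p up to 0.0238. The median over the 10 was -2.26 and over all genes -0.01. Fos was not called without XX E15.5 replicate 1 (adjusted p = 0.0510), XY E13.5 replicate 2 (0.0678) or XY E13.5 replicate 3 (0.0560), nor Junb without XX E15.5 replicate 3 (0.0553), nor Nr4a1 by limma without a filter (0.0528). Without the 6 E11.5 libraries all 10 were called, beside 37.8% of all genes in that fit.

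In the 2 earlier steps Nr4a1 was called both times. From E11.5 to E12.5, 1 of 10 differed between the sexes (40.1% of all genes tested): Nr4a1, whose change was lower in XX (-4.24 ± 0.80 on the log2 scale, adjusted p = 0.000308 by edgeR). From E12.5 to E13.5, 2 of 10 differed (25.2% of all genes tested), Nr4a1 (3.91 ± 0.79, adjusted p = 0.00137) and Atf3 (3.63 ± 1.19, adjusted p = 0.0312). Atf3 was not called without XX E12.5 replicate 1 or 2, XX E13.5 replicate 3, XY E12.5 replicate 2 or 3, or XY E13.5 replicate 2 or 3, with values from 3.13 to 3.43 and adjusted p from 0.0680 to 0.0846. Over all stages, 7 of 10 genes changed in XX (74.0% of all genes tested) and 8 of 10 in XY (70.3%), and 7 of 10 had an XX minus XY difference that changed with stage (70.1%). All 3 counts were near the share of all genes. Fosb (adjusted p = 0.440) and Egr1 (0.663) were among the genes not called in XX, and Ier2 (0.332) among those not called in XY.

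**Figure D4:**
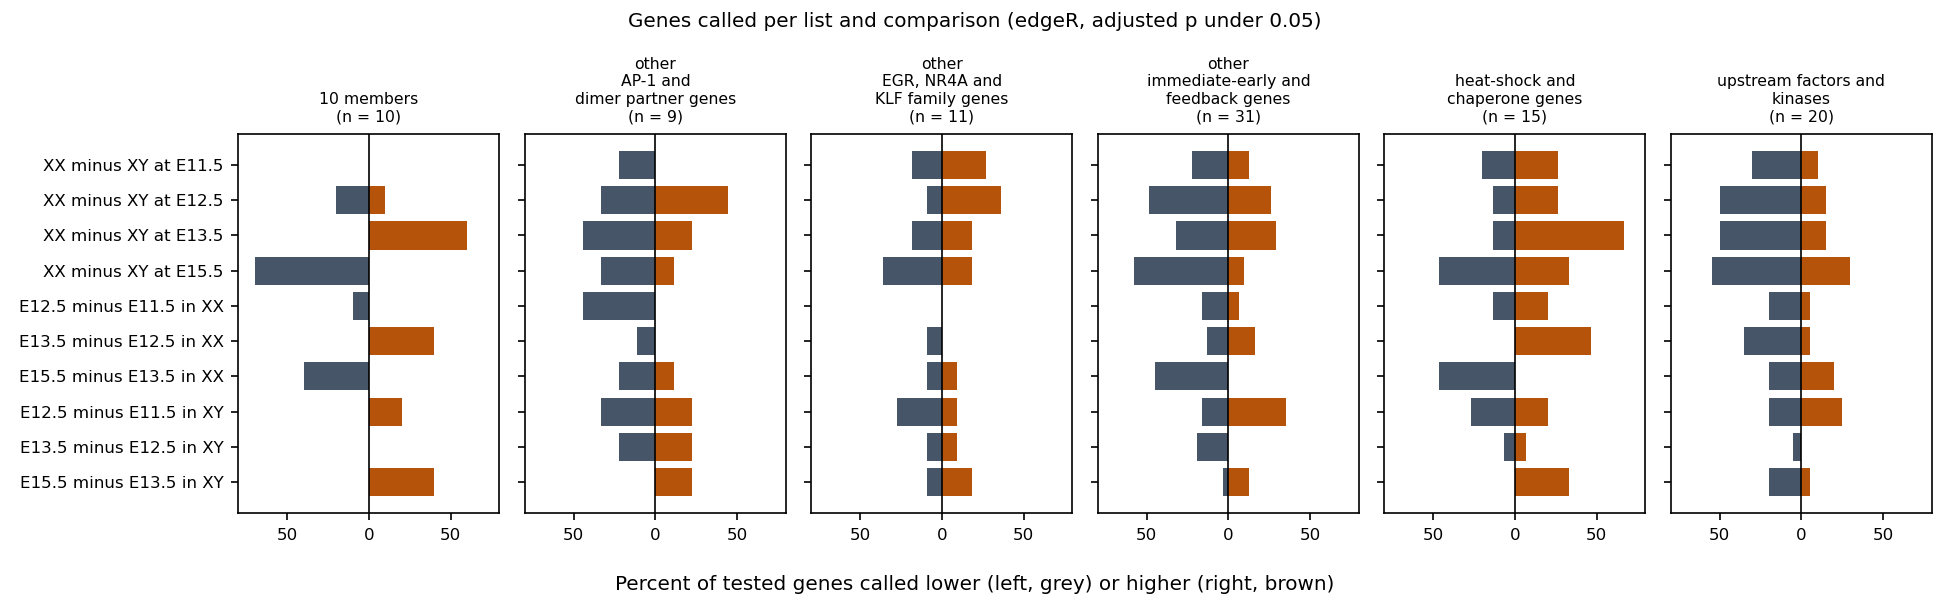
Percent of the tested genes of each list called lower (left, grey) or higher (right, brown) in each comparison (y). The 10 genes and the 31 other immediate-early and feedback genes are called mostly lower in XX at E15.5, and the heat-shock genes mostly higher in XX at E13.5.

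The wider response was described by 5 lists. Of 31 other immediate-early and feedback genes, which include the phosphatases and RNA-decay factors that shut the response off, 21 were called at E15.5, 18 lower and 3 higher in XX (median log2 -1.11), beside 69.4% of all genes called. The extremes were Dusp4, a nuclear MAP kinase phosphatase, lower in XX (-7.51 ± 0.84, adjusted p = 1.22e-07 by edgeR; 0.0868, 0.333 and 0 CPM in XX, 21.7, 26.7 and 22.5 CPM in XY), and the antiproliferative gene Btg1, higher in XX (1.44 ± 0.18, adjusted p = 2.91e-07). The Dusp4 fold rests on XX levels at or near 0. At E13.5 the list was split, with 9 higher, 10 lower and a median of 0.28, beside 66.1% of all genes called. From E13.5 to E15.5, 14 of the 31 fell in XX and none rose (25.6% of all genes called), and in XY (21.3% of all genes called) 4 rose, Csrnp1 most (2.07 ± 0.43, adjusted p = 0.00147), and 1 fell. For the difference between the sexes in that step, 21 of 31 were called, all with a lower change in XX, beside 25.8% of all genes.

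Of the 15 heat-shock and chaperone genes, 12 were called at E13.5, 10 higher and 2 lower in XX (median 0.61), and 12 at E15.5, 5 higher and 7 lower (median -0.07), beside 66.1% and 69.4% of all genes. Hspa1a had the largest difference at E13.5: it was at 1706, 1820 and 1740 CPM in XX and 137, 129 and 136 CPM in XY (3.71 ± 0.53, adjusted p = 4.78e-06 by edgeR). At E15.5 the order was turned for Hspa1a, with 231, 302 and 193 CPM in XX and 870, 874 and 903 CPM in XY, while Hspb1, a small heat-shock protein, had the lowest value of the list (-3.09 ± 0.34, adjusted p = 1.13e-07) and the ubiquitin gene Ubb the highest (1.70 ± 0.16, adjusted p = 3.87e-09). From E13.5 to E15.5, 7 of the 15 fell in XX and none rose, and 5 rose in XY and none fell, beside 25.6% and 21.3% of all genes called. Hspa1a was the extreme of both (-2.86 ± 0.51 in XX and 2.72 ± 0.51 in XY), the same pair of directions as Atf3 and Jun.

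The 3 remaining lists hold the relatives and the upstream regulators of the 10 genes, beside shares of all genes called of 66.1% at E13.5 and 69.4% at E15.5. Of 9 tested AP-1 relatives and dimer partners (of 10 listed), 6 were called at E13.5, 2 higher and 4 lower in XX, and 4 at E15.5, 1 higher and 3 lower. Mafk, a small MAF protein, was the lowest at both stages (-3.61 ± 0.26 and -4.71 ± 0.28), with 79.2 ± 10.8 CPM in XY E13.5 and 6.47 ± 0.590 CPM in XX E13.5 (SD, n = 3). Batf3, another leucine-zipper partner of the JUN proteins, was the highest, at 6.28 ± 0.61 (E13.5) and 1.15 ± 0.44 (E15.5). At E13.5 Batf3 was at 0, 0.0398 and 0 CPM in XY and 1.41, 1.49 and 1.66 CPM in XX. Its fold at that stage rests on XY levels at or near 0. Of 11 other EGR, NR4A and KLF genes, 4 were called at E13.5, 2 in each direction, and 6 at E15.5, 2 higher and 4 lower. Nab2, a corepressor that EGR1 induces and that restrains it, was the lowest at both (-2.09 ± 0.22 and -2.58 ± 0.23). Egr3 (3.09 ± 0.87) was the highest at E13.5 and Klf9 (1.88 ± 0.25) at E15.5. Egr3 was low at E13.5, at 0.221, 0.359 and 0.214 CPM in XY and 1.33, 2.57 and 3.02 CPM in XX. Nr4a3, a paralog of Nr4a1, was the lowest of this list in XX at E12.5 (-3.19 ± 0.50, adjusted p = 1.31e-05 by edgeR). Klf2 was the highest there (4.19 ± 0.76, adjusted p = 8.95e-05 by edgeR). Nr4a3 was low, at 0.311, 0.136 and 0.308 CPM in XX E12.5 and 1.77, 2.46 and 2.83 CPM in XY E12.5. Klf2 was uneven, at 28.7, 71.4 and 230 CPM in XX E12.5 and 2.47, 6.90 and 8.59 CPM in XY E12.5. Of 20 upstream factors and kinases, 13 were called at E13.5, 3 higher and 10 lower in XX, and 17 at E15.5, 6 higher and 11 lower. Map2k1, which encodes the kinase MEK1, was the lowest of these at E12.5 (-2.02 ± 0.09, adjusted p = 1.44e-13). Mrtfb, a coactivator of serum response factor, was the highest at E15.5 (2.01 ± 0.15) and Elk1, another of its partners, the lowest (-1.45 ± 0.20).

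Likeness of pattern was measured as the root mean square difference between the 8 centred group means of log2(CPM + 1). Within the set, Fos and Klf4 were closest (0.28), then Ier2 and Klf4 (0.32) and Fos and Jun (0.43), while Nr4a1 and Ier2 were furthest apart (1.66). Outside the set, the genes closest to the mean profile of the 10 were Gm17971 (0.26), 4930579G24Rik (0.27), H1f4 (0.29), Lig1 (0.30) and Stmn1 (0.31). Lig1, the replicative DNA ligase, was at 156 ± 4.86 CPM in XY E15.5 and 83.0 ± 5.37 CPM in XX E13.5 (SD, n = 3), its highest XY and XX groups. The single closest gene was Ddit3 for Fos (0.32), Spocd1 for Fosb (0.31), Esr2 for Jun (0.32), Dnd1 for Junb (0.20), Ttll9 for Egr1 (0.24), Dppa3 for Atf3 (0.85), Jmjd7 for Ier2 (0.15), Pyroxd2 for Klf4 (0.22), Gm17971 for Klf6 (0.43) and Maff for Nr4a1 (0.56). Maff, a small MAF gene, shared the high XY E12.5 level of Nr4a1, at 39.9 ± 14.4 CPM there and 3.48 ± 0.521 CPM in XX E12.5 (SD, n = 3). Dnd1 and Dppa3 are among the germ-cell markers used here. Group means of Dppa3 ran from 0.544 CPM in XY E12.5 to 15.8 CPM in XY E15.5. The part of germ cells in these likenesses was not tested. Several of the genes named were low. Group means ran from 0 to 5.07 CPM for Spocd1, 0.134 to 2.68 for Esr2 and 0.382 to 6.58 for Ttll9. They ran from 0.424 to 3.35 CPM for Gm17971 and 0.858 to 2.43 for H1f4. At such levels the 1 added before taking logs narrows the differences between groups. Esr2 was at 0.923 CPM in XX E13.5 and 0.956 CPM in XX E15.5, a step in which Jun fell. The likeness values describe 8 group means and carry no test.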

How the data were processed

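RNA was measured in 24 libraries of sorted cells, made from polyadenylated RNA with amplified cDNA and without molecular identifiers, per the labels' protocols. The authors deposited estimated counts and TPM per gene symbol; the genome build is mm10 per the submitters' processing notes, and the aligner, counter and use of strand are not given in the sources used here. Of the count values, 17.5% were not whole (Jun's in all 24 libraries, the other 9 genes' in none), and all were rounded. The deposited TPM summed to 938740 to 961696 per library.

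Groups came from the titles. XX E13.5 replicate 1 is E13.5 by title and E12.5 by its stage field, and was kept at E13.5. Counts were fitted with edgeR 4.0.16 (R 4.3.3; TMM scaling, filterByExpr, robust quasi-likelihood fit, 8 group means, 16 residual degrees of freedom), with Benjamini-Hochberg adjustment over 16190 genes and calls at 0.05. CPM used the scaled library sizes. Each SE of a log2 difference was its absolute value divided by the square root of the quasi-likelihood F value. The common coefficient of biological variation was 17.4%. Alternatives were DESeq2 1.42.0, limma 3.58.1 on log2 TPM, other filters and scaling, a replicate block, fits of the compared groups alone, and the omission of single libraries or, added after the data had been seen, of all E11.5 libraries. The pipeline was tested on simulated data. Library pairs within groups differed beyond sampling noise (chi-square per degree of freedom 3.83 to 114 over 24 pairs). Positions come from GENCODE M21 and promoters from RefSeq, both on GRCm38.

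The 10 genes and all lists were chosen with earlier results of these data known. Every one of the 10 is described. Of each list only the called genes with the highest and lowest log2 difference are named; the 5 genes closest to the mean profile and the closest gene to each of the 10 are also named. The levels printed for Hspa1a, Dusp4, Mafk, Batf3, Egr3, Nr4a3, Klf2, Lig1 and Maff were picked after they had been seen. So were those of Spocd1, Esr2, Ttll9, Gm17971, H1f4 and Dppa3.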

Additional observations from a re-analysis of the deposited data

Results flagged for a closer look

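The XX minus XY difference changed with stage, by the interaction term of the edgeR fit with Benjamini-Hochberg adjustment over all genes, for 7 of the 10 genes, beside 70.1% of all genes tested. The adjusted p was 0.000178 for Nr4a1, 0.000932 for Jun, 0.00112 for Atf3, 0.00685 for Fosb, 0.0137 for Klf6, 0.0169 for Junb and 0.0418 for Fos. For Jun, Atf3, Klf6, Fos, Fosb and Junb the difference was above 0 at E13.5 and below 0 at E15.5. Fosb and Junb were not called at E13.5 (adjusted p = 0.756 and 0.165), nor Fos at E15.5 (0.0910). For Nr4a1 the difference was lowest at E12.5.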

How the results depend on the processing

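The 41 calls of single genes were each refitted under up to 34 alternatives, 1390 values in all. Of these, 1256 stayed past the threshold, 134 did not, and 0 changed sign. The 89 comparisons in which a gene was not called gave 2990 values, of which 144 changed sign and 126 passed the threshold.

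Counts of the 10 genes called moved by over 1.5 times in these cases; where no value or construction shows it, the cause was not tested. At E11.5 (XX minus XY) limma called 1 gene with either pseudocount, against 0. At E13.5 limma without a filter called 3, against 6. For E11.5 to E12.5 in XX, against 1, limma called 2 with either pseudocount and 0 without a filter, and the fit of only the libraries compared called 0. That last fit called 8.0% of all genes, against 34.0% in the main fit. For E12.5 to E13.5 in XX, against 4, edgeR and limma without a filter each called 2. For E13.5 to E15.5 in XX the fit of only the libraries compared called 9, against 4. For E11.5 to E12.5 in XY, against 2, limma without a filter called 1 and the libraries compared 5. For E12.5 to E13.5 in XY, against 0, the libraries compared called 1 (31.2% of all genes), as did the fit without E11.5 (28.7%), against 16.6% in the main fit. For E13.5 to E15.5 in XY, against 4, these 2 fits called 8 and 7. They called 44.3% and 33.3% of all genes, against 21.3% in the main fit. For any change in XX, against 7, edgeR without a filter and the libraries compared each called 3. For any change in XY, against 8, edgeR without a filter called 3, limma 5 with either pseudocount and 4 without a filter. For the difference between the sexes from E11.5 to E12.5, against 1, DESeq2 size factors, a minimum of 10 counts in every library, DESeq2 and all 3 limma fits each called 2. From E12.5 to E13.5, against 2, edgeR without a filter and all 3 limma fits called 1, and the libraries compared and the fit without E11.5 called 4.

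Leaving out 1 library in turn gave, for XX minus XY, 0 to 5 at E11.5, 2 to 4 at E12.5, 2 to 7 at E13.5 and 5 to 9 at E15.5. For the 3 steps in order it gave 1 to 3, 1 to 5 and 1 to 6 in XX, and 1 to 6, 0 to 1 and 3 to 6 in XY. It gave 4 to 9 for any change in XX, 4 to 10 in XY, 5 to 10 for the change of the difference with stage, and 1 to 5, 1 to 4 and 6 to 10 for the difference between the sexes in each step. In the main fit and in each fit without 1 library, the spread of a gene was shared by all groups. The wide XX E11.5 libraries thus entered the tests of every stage. In edgeR fits of only the libraries compared, Junb at E13.5 (0.57, adjusted p = 4.56e-06) and Fos at E15.5 (-0.88, 6.29e-07) were called. In such fits Nr4a1 from E11.5 to E12.5 in XX (0.115) and Atf3 from E12.5 to E13.5 in XX (0.0523) were not.

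Over all tested genes, deviations of same-numbered libraries had a mean correlation of 0.00423 over 84 pairs, with 15 above 0.1 and a maximum of 0.35. Differently numbered libraries had -0.00238 over 168 pairs, with 27 above 0.1 and a maximum of 0.27. For the 10 genes, replicate 1 was lowest for 10, 10, 9 and 9 in XX E12.5, XY E12.5, XX E13.5 and XY E15.5. It was highest for 10 in XX E11.5 and for 7 in XY E13.5, and mixed in XX E15.5 and XY E11.5. With the replicate block 0, 3, 5 and 6 genes were called in XX minus XY at the 4 stages, 1, 4 and 3 for the steps in XX, 2, 0 and 3 in XY, 6 and 7 for any change in XX and XY, 6 for the interaction and 1, 2 and 7 for the step differences. It ended the calls of Klf4 at E13.5 (adjusted p = 0.0525), Klf6 at E15.5 (0.0537), Jun from E13.5 to E15.5 in XX (0.0591) and Fos in that step in XY (0.0627), and no other of the 41 calls.

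Counts over all genes moved by over 1.5 times with only the libraries compared: 2718 against 6803 at E11.5, 1176 against 5505 for E11.5 to E12.5 in XX, 4317 against 2694 for E12.5 to E13.5 in XY, 6111 against 3448 for E13.5 to E15.5 in XY and 6318 against 4184 for the difference in that step. Without E11.5 the XY counts were 4470 and 5187. Without XX E13.5 replicate 1 or XX E15.5 replicate 3 the XX count from E13.5 to E15.5 was 2726 or 2540, against 4144. These were 16.4% and 15.4% of all genes in those fits, against 25.6%. Without XY E12.5 replicate 2, XY E13.5 replicate 2 or XY E13.5 replicate 3 the XY count from E12.5 to E13.5 was 1503, 1626 or 1606. Those were 9.1%, 9.85% and 9.73% of all genes, against 16.6%. In no other fit did the count over all genes move by over 1.5 times.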
